A study of Mus musculus with 15 samples.

Results

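The genes of oligodendrocytes and of the myelin they make were followed through thalamus libraries of control and Maged1-cKO mice given saline or cocaine. The set held 36 named genes of the 25080 in the tables, taken by name, with earlier results of these data known, and not by a threshold on their values: 5 of the precursor and early differentiating stages (Pdgfra, Cspg4, Gpr17, Bcas1 and Enpp6) and 31 of mature, myelinating cells, called the mature members here. Each deposited table gave TPM, transcript abundance corrected for length and set to a common library total, and these were divided by a TMM factor for each library. Levels below are these scaled TPM, and differences are log2 fold changes of scaled TPM + 0.5 with their SE. They were tested with limma over 13471 genes and called at a Benjamini-Hochberg adjusted p under 0.05 with an absolute log2 fold change of 0.5 or more. All 36 members were tested, and 35 were at 1 TPM or more in every library.

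Whole thalamus of adult mice (2 to 4 months old) was microdissected, and RNA freed of ribosomal RNA was sequenced. In Maged1-cKO mice a floxed Maged1 is removed by Cre under the Vglut2 promoter, which is active in glutamatergic neurons. Controls are given in the titles as WT and in most genotype tags as Maged1 Loxp. Every mouse had 3 days of saline and then 5 days of injections into the peritoneum, of saline or of cocaine at 20 mg/kg. After saline there were 4 libraries of each genotype, after cocaine 4 titled control and 2 titled cKO, and 1 more sample of the last kind was not analysed here. Nothing in the TPM gives the depth of a library, so no counting error can be set.

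The labels were checked first against Maged1. Its scaled level ran from 150 to 166 over control saline libraries and from 64.5 to 78.0 over cKO saline libraries. After cocaine the order was turned: 58.5 to 87.9 under the control label, and 152 and 174 under the cKO label. Maged1 thus went against the genotype labels of the cocaine libraries, and these are written as labelled throughout. In 4 saline libraries (control 3 and 4, cKO 1 and 2) the genotype tag also named the other genotype than the title, which sets the groups here. Maged1 in these went with the title: 149.7 and 150.8 in control saline 3 and 4, and 78.0 and 76.6 in cKO saline 1 and 2. A contrast of cocaine with saline averaged over both labels does not turn on which label is right. A contrast within a label does. If the cocaine labels are exchanged, it sets different genotypes against each other, and treatment and genotype cannot be told apart in it. The 5 highest genes took 36.02 to 41.6% of the listed TPM in cocaine libraries and 18.9 to 21.6% in saline libraries, and TMM factors were 0.807 to 0.947 and 1.07 to 1.21.

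Oligodendrocytes arise from precursor cells that carry the growth factor receptor Pdgfra and the proteoglycan Cspg4 (NG2). Under the transcription factors Olig2, Sox10 and Myrf they leave the cell cycle, pass a stage marked by Gpr17, Bcas1 and Enpp6, and wrap axons in a membrane rich in galactolipids and in proteins such as Mbp and Mobp. The thalamus is crossed by many myelinated fibres, and the adult brain keeps both precursors and newly differentiating cells. In bulk tissue, fewer cells of a type and less RNA per cell cannot be told apart. The tissue held this lineage in every library: Mbp, which compacts the myelin membrane, ranked 9 of the 25080 listed genes in control saline, Mobp ranked 127 and Cnp 305.

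A pair of members called in opposite directions with control-labelled cocaine is shown by the bases in front of the gene, from RefSeq promoters on GRCm38.p6. Of the members called higher there, only Mobp had such a promoter. Mobp lies at chr9:120149707-120181484 on the plus strand, where it overlaps the annotated gene Gm38642, and the bases shown are chr9:120149492-120149706. Zfp488, a zinc finger transcription factor of the lineage, lies at chr14:33967070-33978764 on the minus strand with no other annotated gene over it, and the bases shown are chr14:33978765-33979014. Capitals mark CTTTGT, the reverse complement of ACAAAG, a form of the site of SOX factors.
Mobp: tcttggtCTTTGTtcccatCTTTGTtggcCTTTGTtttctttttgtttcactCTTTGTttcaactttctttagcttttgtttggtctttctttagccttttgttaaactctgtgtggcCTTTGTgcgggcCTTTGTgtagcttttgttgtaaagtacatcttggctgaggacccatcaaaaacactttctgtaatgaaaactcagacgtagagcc
Zfp488: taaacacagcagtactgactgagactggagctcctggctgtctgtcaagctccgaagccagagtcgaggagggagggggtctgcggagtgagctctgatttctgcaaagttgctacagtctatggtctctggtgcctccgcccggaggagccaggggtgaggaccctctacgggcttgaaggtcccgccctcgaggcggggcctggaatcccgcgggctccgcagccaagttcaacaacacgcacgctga
The Mobp stretch held 6 matches to ACAAAG or CTTTGT, which were all CTTTGT, and that of Zfp488 held 0. Among 32851 RefSeq promoters cut to the 250 bases before the start, 16.5% held 1 or more matches on either strand, and 1 held 6 or more. RefSeq windows were found for 26 of the 36 members (36 windows), and 10 of these windows, from 8 members, held ACAAAG or its reverse complement. Among the members called lower with the cKO label, Tspan2 held such a match, and Aspa and Zfp488 did not. The E-box form CAGCTG, which is its own reverse complement, was in 13.0% of all promoters and in 2 of the 36 windows. The motifs, whose letters cannot overlap each other, were chosen with the results known, and a match is not a bound site.

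Zfp488 was lower after cocaine in every comparison. Its level was 71.7, 80.6, 88.0 and 84.7 in control saline, in the order of the replicates, and 59.6, 44.0, 36.4 and 40.3 in the control-labelled cocaine libraries. It was 85.8, 101.5, 88.6 and 88.5 in cKO saline and 51.3 and 42.5 in the cKO-labelled cocaine libraries. All 6 cocaine libraries lay below all 8 saline libraries. The mean fell from 81.2 ± 7.03 to 45.1 ± 10.1 with the control label (SD, n = 4 each) and from 91.1 ± 7.06 (n = 4) to 46.9 ± 6.24 (n = 2) with the cKO label. The log2 fold changes were -0.86 ± 0.13 (limma, adjusted p = 0.000671) and -0.95 ± 0.16 (adjusted p = 0.00165), and -0.91 ± 0.10 averaged over both labels (adjusted p = 4.38e-05). It was the only member called in that average, in which 1.02% of all genes were called lower and 1.05% higher. The call held in all 26 alternatives for each label and all 25 for the average, with values from -1.33 to -0.77 over the 3 contrasts. Between genotypes Zfp488 differed by 0.17 ± 0.13 after saline and by 0.07 ± 0.16 after cocaine, which were not called.

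In the control-labelled libraries 6 members rose with cocaine and Zfp488 fell. If the cocaine labels are exchanged, genotype differs along with treatment in this contrast, and their parts cannot be told apart. Over all genes 1.54% were called higher and 1.56% lower. Of the 36 members, 33 had a positive value against 52.1% of all genes, with a median of 0.20 for the mature members, 0.23 for the precursor genes and 0.01 for all genes. All 4 cocaine libraries lay above all 4 saline libraries in 6 of the 36 members, the 6 that rose, and in 14.9% of all genes, so that the share of such members was near that of all genes.

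The largest rise was that of Fa2h, which hydroxylates the fatty acids of myelin galactolipids. Its level was 12.9, 10.5, 10.4 and 10.2 in control saline and 13.9, 17.7, 22.8 and 18.6 with control-labelled cocaine, a log2 fold change of 0.69 ± 0.14 (limma, adjusted p = 0.00478). Cryab, a small heat shock protein abundant in oligodendrocytes, went from 37.2, 38.8, 36.5 and 35.9 to 40.5, 62.7, 68.7 and 61.6, a change of 0.62 ± 0.14 (limma, adjusted p = 0.00695). Cocaine replicate 1 was the lowest of the cocaine libraries in both genes and lay just above saline. Fa2h was at 17.2, 18.7, 13.8 and 12.7 in cKO saline and 17.5 and 17.6 with cKO-labelled cocaine. Cryab was at 56.6, 51.0, 41.8 and 45.5, and then at 67.3 and 57.5. Neither was called with the cKO label.

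Mobp, a protein of compact myelin, stood at 210, 176, 185 and 187 in control saline and at 216, 282, 369 and 311 with control-labelled cocaine (0.61 ± 0.15, limma, adjusted p = 0.0102). Mbp overlapped between these groups, with 852, 740, 767 and 744 in saline and 820, 1089, 1285 and 1123 with cocaine. Its change of 0.46 ± 0.13 had an adjusted p of 0.0241 in limma but was under the fold minimum, as were Mal, a proteolipid of myelin (0.43 ± 0.15, adjusted p = 0.0471) and Bcas1 (0.50 ± 0.13, adjusted p = 0.0156). All 10 genes of myelin structure had positive values, from 0.11 for Tspan2 to 0.61 for Mobp, and Mobp was the only one called. Cnp, an enzyme of the myelin cytoplasm, had 122, 104, 107 and 100 in saline and 110, 130, 160 and 137 with cocaine, with overlap, and was not called (0.30 ± 0.12, limma, adjusted p = 0.085).

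Of the transcription factors, Sox10 and Myrf rose, Zfp488 fell, and Olig1, Olig2, Nkx6-2 and Zfp536 were not called. Sox10, which keeps lineage identity and drives myelin genes, went from 12.9, 13.3, 12.6 and 12.9 to 13.4, 17.9, 23.9 and 20.2 (0.50 ± 0.14, limma, adjusted p = 0.018). Myrf, which turns on the myelin programme, went from 9.42, 9.78, 10.7 and 9.26 to 10.7, 13.9, 17.5 and 15.04 (0.51 ± 0.13, limma, adjusted p = 0.0128). Both lie just past the fold minimum of 0.5. In the order cKO saline and cKO-labelled cocaine, Sox10 had 17.8, 18.5, 14.03 and 16.1, then 18.4 and 20.9. Myrf had 14.6, 13.6, 10.4 and 12.2, then 15.8 and 16.8. These values were not called. Olig1, a partner of Olig2 in the lineage, was at 63.5, 56.8, 56.0 and 55.9 in saline and 54.8, 57.0, 69.4 and 60.6 with cocaine (0.05 ± 0.08). Olig2, needed to specify the lineage, was at 10.2, 10.2, 10.1 and 9.41 in saline and 10.6, 11.98, 13.1 and 9.66 with cocaine (0.17 ± 0.10). Both overlapped between the groups. In cKO saline Olig1 was at 67.3, 69.2, 56.2 and 60.6 and Olig2 at 12.6, 13.2, 10.3 and 10.2. With cKO-labelled cocaine Olig1 was at 58.4 and 60.5 and Olig2 at 12.1 and 13.1, and neither was called.

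The called rises depended on scaling and on single libraries. With TPM as deposited the median of all genes moved to -0.34, that of the mature members to -0.16, and 0 members were called higher and 1, Zfp488, lower. Without cocaine replicate 3 the calls went from 7 to 4 (Fa2h, Cryab, Gpr17 and Zfp488), and without cocaine replicate 1, in which 0 of the 31 mature members were above their mean over the 14 libraries, there were 10. Over all genes 207 were called higher and 210 lower with all libraries. These counts were 211 and 168 without cocaine replicate 3, and 238 and 334 without cocaine replicate 1. With the genotype tags, or with the 10 libraries whose title and tag agreed, Zfp488 was the 1 call left. The saline groups by tag each mix libraries with high and low Maged1, so that grouping cannot test the other calls. The agreeing set holds fewer saline libraries.

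**Figure D1:**
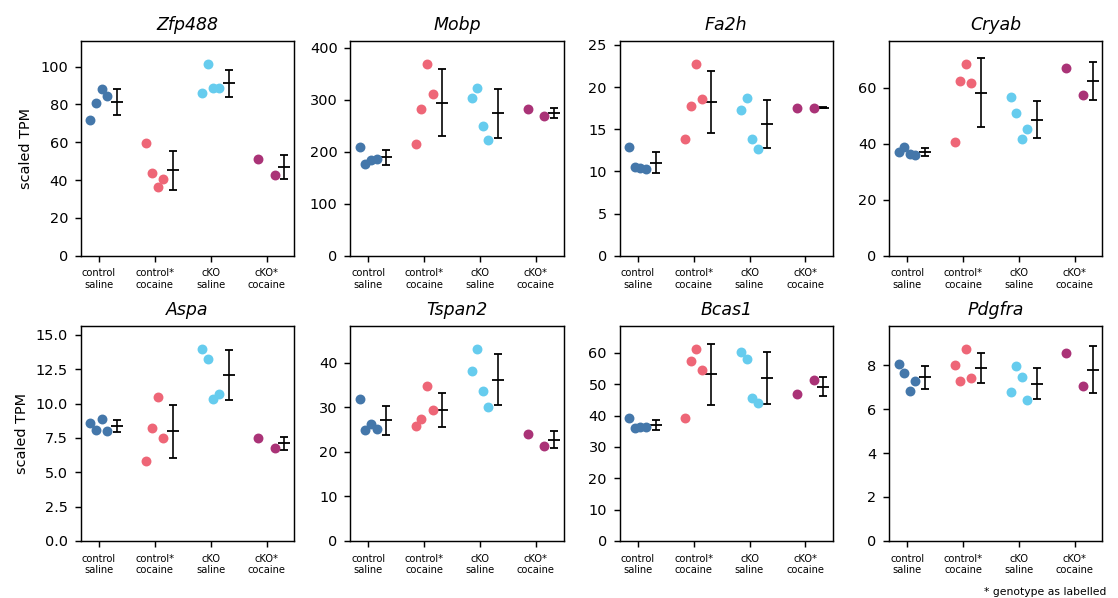
Scaled TPM (linear axis from 0) of 8 members in each of the 14 libraries by group, as points in replicate order from left to right, with the mean and SD of the group beside them; asterisks mark genotype as labelled. All 6 cocaine libraries lie between 36.4 and 59.6 for Zfp488, below every saline library, while Pdgfra overlaps in all 4 groups.

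In the libraries labelled cKO no member rose with cocaine and 3 fell. Here too genotype differs along with treatment if the cocaine labels are exchanged. Over all genes 1.83% were called higher and 1.24% lower. At an unadjusted p under 0.05 in limma 3 members were higher and 8 lower, against 2187 and 2358 of the 13471 genes. Besides Zfp488, the calls were Aspa and Tspan2. Aspa, which frees acetate for myelin lipids from N-acetylaspartate, had 13.98, 13.2, 10.3 and 10.7 in cKO saline and 7.46 and 6.78 with cKO-labelled cocaine, and its change was -0.71 ± 0.17 (limma, adjusted p = 0.0123). Tspan2, a tetraspanin of the oligodendrocyte membrane, had 38.1, 43.1, 33.6 and 30.0 and then 24.1 and 21.4, a change of -0.65 ± 0.15 (limma, adjusted p = 0.00862). Neither gene overlapped between these groups. With the control title Aspa was at 8.56, 8.08, 8.88 and 8.0 after saline and 5.82, 8.19, 10.5 and 7.52 after cocaine. Tspan2 was at 31.97, 25.01, 26.3 and 25.1, and then at 25.9, 27.4, 34.7 and 29.3. There both genes overlapped between saline and cocaine.

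Gjc3, the connexin 29 of myelin, was lower by less than the fold minimum (-0.48 ± 0.11, limma, adjusted p = 0.00911), with 24.6, 26.2, 21.7 and 20.9 in saline and 16.4 and 16.7 with cocaine. In 12 members both cocaine libraries lay below all 4 saline libraries, as in 22.2% of all genes, and in 5 both lay above, as in 21.1%. Such separation of 2 from 4 libraries was thus common over all genes. The 5 were Cspg4, Nkx6-2, Myrf, Zfp536 and Cryab. Median values were -0.08 for the mature members and 0.08 for the precursor genes, against 0.00 for all genes. Mbp (0.01 ± 0.16) and Mobp (0.02 ± 0.18), called or near the fold minimum with the control label, were close to 0 here. With cKO-labelled cocaine Mbp was at 1028 and 1070, Mobp at 282.1 and 268, and Cnp at 119 and 117 (-0.22 ± 0.14). Only 2 libraries stand for cocaine here. Without cKO-labelled cocaine replicate 2, 1 member was called (Zfp488), as with the genotype tags and with the 10 agreeing libraries. Without that replicate the calls over all genes went from 247 higher and 167 lower to 127 and 86. With TPM as deposited 14 members were called lower, beside a median of -0.35 for all genes.

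After saline the mature members were on balance higher in cKO than in control libraries, but none was called. Of the 31 mature members 30 had a positive value and the median was 0.39, where 54.1% of all genes were positive with a median of 0.01. Over all genes 0.0445% were called in either direction. At an unadjusted p under 0.05 in limma 27 of the 36 members were higher and 0 lower, against 1262 and 993 of the 13471 genes, and the lowest adjusted p of a member was 0.0833 (Gjc3, 0.39 ± 0.09). In 16 members every cKO library lay above every control library, as in 7.02% of all genes. The members moved together by library, so counts of members, here and in the other comparisons, are not counts of independent results.

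By role, the 10 genes of myelin structure had values from 0.35 (Cnp) to 0.52 (Mobp), the 4 lipid and acetate enzymes from 0.20 (Gal3st1, which sulfates galactolipids) to 0.49 (Aspa), and the connexins Gjb1 and Gjc3 0.44 and 0.39. Values of the transcription factors ran from -0.07 for Nkx6-2 to 0.35 for Myrf. Klk6, a protease of oligodendrocytes, had the largest value, 0.63 ± 0.24, with control saline libraries at 2.24, 1.85, 2.59 and 4.04 and cKO saline libraries at 5.02, 3.94, 4.56 and 3.68. Its groups overlapped.

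For the abundant structural genes the cKO saline libraries split by replicate. Mbp was 1173 and 1231 in cKO saline replicates 1 and 2, and 902 and 899 in replicates 3 and 4, against 740 to 852 in control saline. Mobp was 304, 324, 249 and 222, against 176 to 210 in control saline. Cnp was 142, 168, 124 and 120, against 100 to 122. Replicates 1 and 2, the higher pair, are those whose genotype tag names Maged1 Loxp. In them 31 and 30 of the 31 mature members were above their mean over the 14 libraries, in replicates 3 and 4 it was 13 and 18, and in the 4 control saline libraries 2 to 7. Grouped by the tags, the median of the mature members turned to -0.17, but those groups each mix libraries with high and low Maged1. With the libraries whose labels agree it was 0.20. The scaling choices left it between 0.38 and 0.43.

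Genes of neighbouring tissue also differed between these groups. The 5 ependymal markers summed to 20.1 to 25.01 scaled TPM in the control libraries after saline and 4.12 to 15.8 in the cKO ones, the 6 hypothalamic neuropeptides to 128 to 454 and 7.18 to 143, and the 3 habenular genes to 33.1 to 49.0 and 6.56 to 34.4. The 4 choroid plexus genes summed to 1434 in control saline replicate 1 and to 14.2 to 54.9 in the others, which overlaps 3.01 to 43.4 in cKO saline. With control-labelled cocaine the ependymal sum was 4.24 to 26.6 and the hypothalamic one 1.58 to 125, and with cKO-labelled cocaine 21.1 to 31.5 and 30.2 to 69.8. The habenular sum was 118 in control-labelled cocaine replicate 1, in which 0 of the 31 mature members were above their mean, against 34.1, 39.5 and 3.86 in replicates 2 to 4, and 40.6 and 20.7 with cKO-labelled cocaine. In that library the hypothalamic sum was 1.58. The 8 genes listed for excitatory thalamic neurons summed to 932 to 1055 in control saline, 1069 to 1208 with control-labelled cocaine, 996 to 1133 in cKO saline and 1072 to 1113 with cKO-labelled cocaine. Of these Snap25, Syt1 and Rbfox3 are general neuronal genes, and Snap25 is the largest part of each sum. Between the saline groups Calb2 was lower in cKO without overlap (119 to 135 against 44.9 to 104), and Snap25, Syt1 and Slc17a7 were higher without overlap. None of these lists was at 0 in all libraries for any of its genes, and their part in the values of the members was not tested. Sums of 6 astrocyte genes lay between 344 and 408 in all 14 libraries, those of 6 microglial genes between 37.5 and 46.3, those of 4 endothelial genes between 37.0 and 45.6, and those of 5 genes of striatum, cortex and hippocampus between 9.38 and 26.3. Slc1a2 is the largest part of each astrocyte sum. Between the saline groups Slc1a2 was higher in cKO (0.22 ± 0.07) and Slc1a3 lower (-0.22 ± 0.05), both without overlap. Neither was called, and the other astrocyte genes overlapped.

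**Figure D2:**
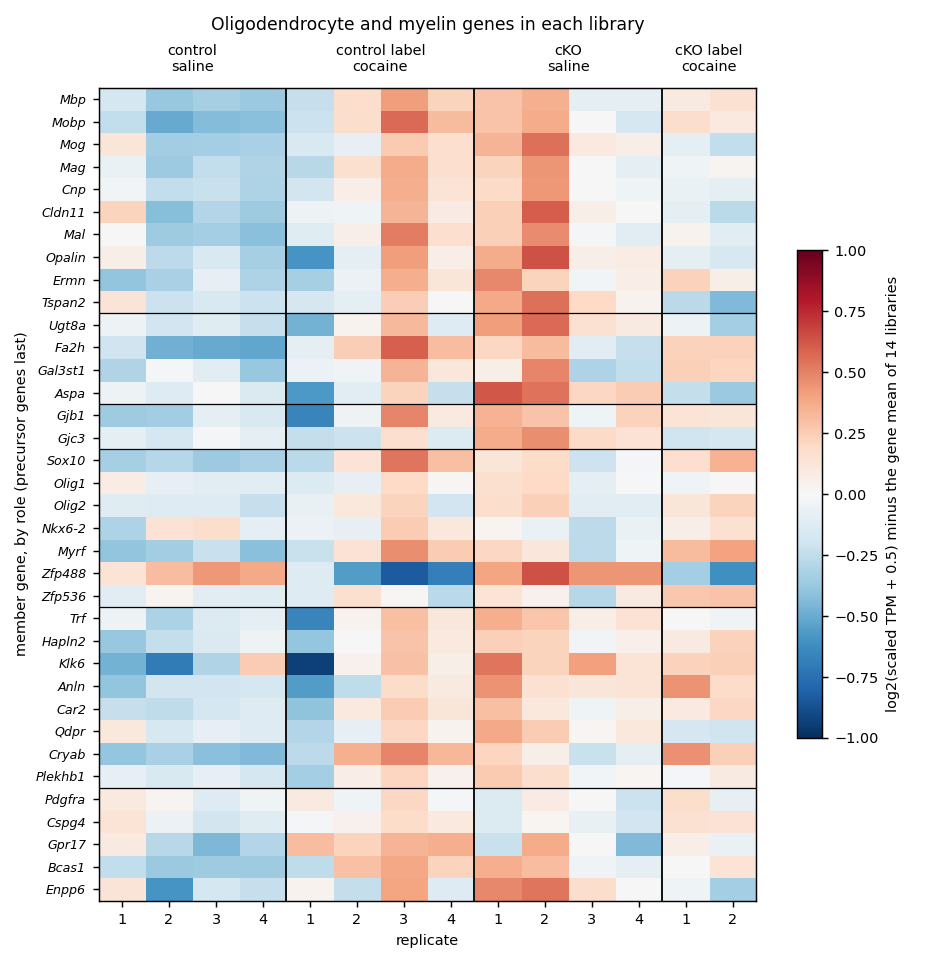
Heat map of the 36 members (rows, ordered by role, with precursor genes last) in the 14 libraries (columns, replicate number below), as log2(scaled TPM + 0.5) minus the mean of the gene over the 14 libraries (colour scale from -1 to 1). Control saline and control-labelled cocaine replicate 1 are low for most mature members, cKO saline replicates 1 and 2 and control-labelled cocaine replicate 3 are high, and Zfp488 is low in all 6 cocaine libraries.

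The precursor genes were set against the mature ones. Pdgfra was 8.06, 7.66, 6.83 and 7.28 in control saline, 8.03, 7.27, 8.74 and 7.43 with control-labelled cocaine, 6.79, 7.96, 7.48 and 6.41 in cKO saline, and 8.55 and 7.05 with cKO-labelled cocaine. Cspg4 was 3.61, 3.09, 2.80 and 2.95, then 3.22, 3.35, 3.74 and 3.50, then 2.90, 3.30, 3.05 and 2.78, then 3.66 and 3.64, in the same order of groups. Both stayed within a narrow range, with Pdgfra overlapping in every comparison and Cspg4 in all but cKO-labelled cocaine against cKO saline. Between the saline groups they differed by -0.06 ± 0.08 and -0.04 ± 0.07, where the median of the mature members was 0.39. With cocaine Pdgfra changed by 0.07 ± 0.08 and 0.11 ± 0.10 under the control and cKO labels, and Cspg4 by 0.13 ± 0.07 and 0.24 ± 0.09, and neither was called. Averaged over both labels Cspg4 was higher by 0.19 ± 0.06 (limma, adjusted p = 0.0249), under the fold minimum, and the value was -0.14 with TPM as deposited.

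Gpr17, a receptor of cells on the way to myelination, overlaps the gene Lims2. It rose with control-labelled cocaine (0.55 ± 0.15, limma, adjusted p = 0.0183), from 7.76, 5.91, 5.18 and 5.83 to 9.11, 8.59, 9.36 and 9.50. It was 6.16, 9.54, 7.26 and 5.21 in cKO saline and 7.65 and 6.92 with cKO-labelled cocaine, a change of 0.08 ± 0.18. With the control label, cocaine replicate 1 lay within the range of the other cocaine libraries.

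Bcas1, a gene of early myelinating cells that mature ones keep, had 39.2, 36.03, 36.4 and 36.4 in control saline, 39.2, 57.3, 61.2 and 54.6 with control-labelled cocaine, 60.2, 58.2, 45.5 and 43.9 in cKO saline, and 47.0 and 51.4 with cKO-labelled cocaine. All cKO saline libraries were above control saline, by 0.47 ± 0.13 (limma, adjusted p = 0.116). Enpp6, an enzyme of newly forming oligodendrocytes, was the lowest member. It was at 1.69, 0.83, 1.27 and 1.21 in control saline and 2.30, 2.40, 1.76 and 1.51 in cKO saline, where replicates 1 and 2 were again the higher pair. With control-labelled cocaine it was at 1.55, 1.20, 2.14 and 1.33, and with cKO-labelled cocaine at 1.44 and 1.08. The 5 precursor genes did not form 1 pattern: in the saline comparison Bcas1 and Enpp6 (0.52 ± 0.18) had values like those of the mature members, and Pdgfra and Cspg4 did not. A further list of 12 precursor genes, of which 11 were tested, had 0 calls in limma for cocaine with either label or between the saline groups, with medians of 0.01, 0.01 and 0.00. At an unadjusted p under 0.05, 1 was higher with control-labelled cocaine, and 1 higher and 1 lower with cKO-labelled cocaine. The counts with cKO-labelled cocaine were no larger a share than in all genes.

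**Figure D3:**
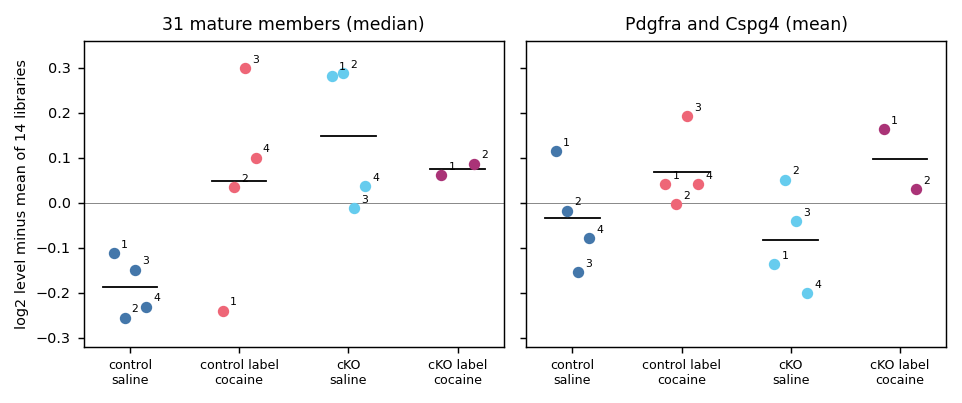
For each library, the median over the 31 mature members (left) and the mean over Pdgfra and Cspg4 (right) of the log2 level minus the mean of the 14 libraries, by group, with the replicate number beside each point and the group mean as a line. The mature medians run from -0.26 to 0.30, with control saline between -0.26 and -0.11, and those of Pdgfra and Cspg4 from -0.20 to 0.19.

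After cocaine no member was called between the libraries labelled cKO and control. Over all genes 0.0371% were called in either direction, and in limma 2 members were higher and 1 lower at an unadjusted p under 0.05, against 588 and 1047 of the 13471 genes. The median was 0.04 for the mature members and -0.09 for the precursor genes. Zfp536, a zinc finger gene of the lineage (0.34 ± 0.12), and Anln (0.46 ± 0.17), which has a role in cell division and is also found in myelin, were the 2 with both cKO-labelled libraries above all control-labelled ones, as in 7.03% of all genes. Tspan2 (-0.36 ± 0.15), Cldn11, the tight junction claudin of myelin (-0.26 ± 0.19), and Gpr17 (-0.31 ± 0.18) were the 3 with both below, as in 10.6% of all genes. Neither count stands apart from these shares.

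The change with cocaine was compared between the labels as an interaction, cKO minus control. This value adds control saline and cKO-labelled cocaine, the groups with high Maged1, and subtracts the groups with low Maged1. If the cocaine labels are exchanged, it is a difference between genotypes and not in the response to cocaine. Which reading holds was not tested. No member was called, where 0.854% of all genes were called in either direction, but 31 of 36 values were negative (44.6% of all genes were positive) and 14 members were lower at an unadjusted p under 0.05 in limma, against 1517 of the 13471 genes. The median of the mature members was -0.32 and that of all genes -0.03. The largest were Tspan2 (-0.76 ± 0.19, limma, adjusted p = 0.0646), Enpp6 (-0.73 ± 0.28), Mog, a glycoprotein of the outer myelin surface (-0.71 ± 0.21), and Cldn11 (-0.70 ± 0.24). Both saline groups enter this value, so the higher level in cKO saline is part of it. Without control-labelled cocaine replicate 1, 4 members were called in limma: Tspan2 (-0.82), Aspa (-0.76), Bcas1 (-0.70) and Trf, which carries iron (-0.53), with adjusted p of 0.0455, 0.0466, 0.0391 and 0.0487. The calls over all genes grew as well, from 63 higher and 52 lower to 148 higher and 99 lower of 13444 genes. Without cKO saline replicate 4 the called member was Tspan2 (-0.85, limma, adjusted p = 0.0432), beside 55 higher and 53 lower of 13437 genes.

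**Figure D4:**
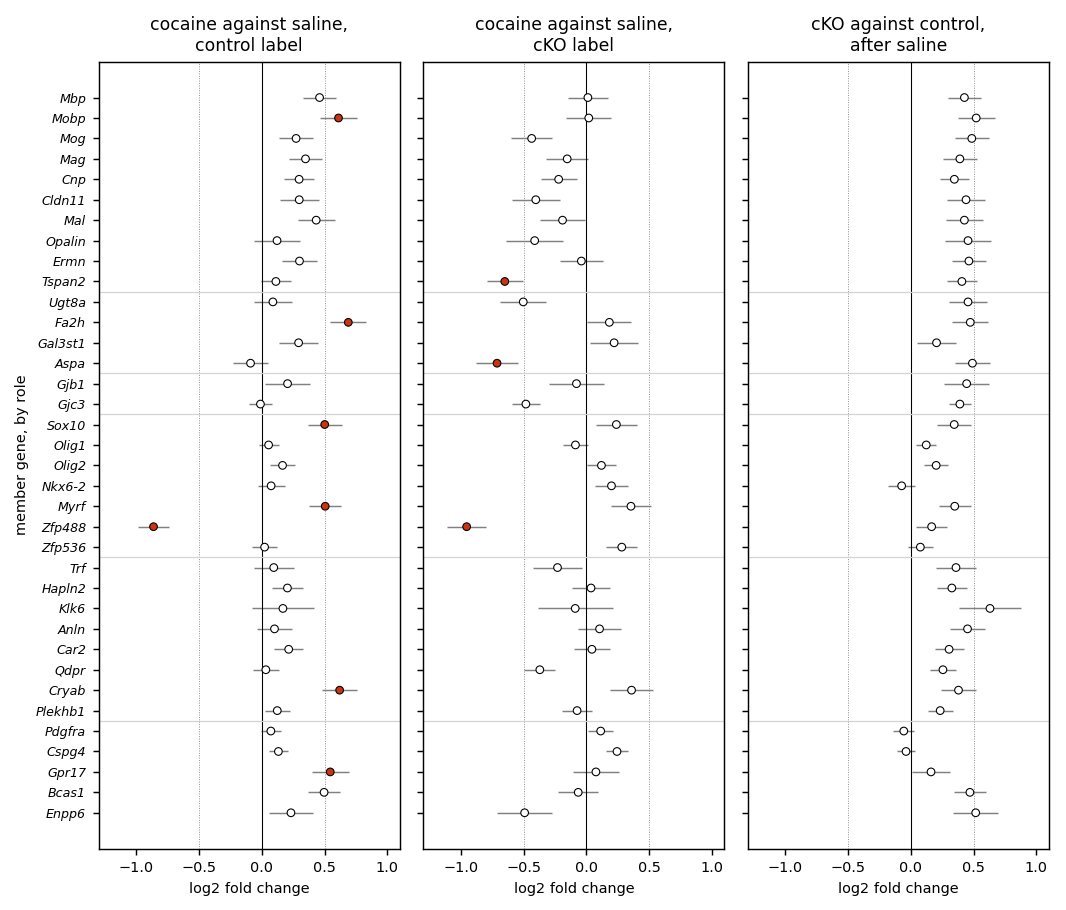
Log2 fold changes (points) with SE (bars) of the 36 members in 3 contrasts, by role, with called genes filled in red and dotted lines at the fold minimum of 0.5 in either direction. Values in the left panel are mostly positive apart from Zfp488 (-0.86), the middle panel lies on both sides of 0, and in the right panel 33 of 36 are positive and none is called.

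Averaged over both labels, which leaves the doubt on the genotype of the cocaine libraries aside, 9 members had an adjusted p under 0.05 in limma, and Zfp488 was the 1 past the fold minimum. Past that minimum 1.05% of all genes were higher and 1.02% lower. The share of all genes at an adjusted p alone is not given here, so the count of 9 cannot be read against it. Higher with cocaine by less than the minimum were Cryab (0.49 ± 0.11), Fa2h (0.44 ± 0.11), Myrf (0.43 ± 0.10), Sox10 (0.37 ± 0.11) and Cspg4 (0.19 ± 0.06), and lower were Aspa (-0.40 ± 0.11), Tspan2 (-0.27 ± 0.09) and Gjc3 (-0.25 ± 0.07). Mature members thus lay on both sides: the median was 0.10, with 20 positive and 11 negative, where the median of all genes was 0.007. With TPM as deposited Sox10 was at 0.00 and the median at -0.28, beside -0.34 for all genes.

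Among 24 further genes of mature oligodendrocytes, 0 were called by limma in the 4 contrasts between 2 groups, and 22 were positive between the saline groups with a median of 0.30. At an unadjusted p under 0.05, 6 were higher and 1 lower with control-labelled cocaine, 1 higher and 3 lower with cKO-labelled cocaine, 16 higher and 1 lower in cKO saline, and 1 higher with the cKO label after cocaine. With cKO-labelled cocaine neither count was a larger share than in all genes. For control-labelled cocaine the share of all genes at this threshold is not given here. Tppp3, a tubulin-binding protein, took another course and was the 1 gene of that list called for the interaction (0.88 ± 0.09, limma, adjusted p = 0.00132). Its value was 0.49 ± 0.07 with cKO-labelled cocaine (limma, adjusted p = 0.000674). In cKO against control saline it was -0.42 ± 0.055 (limma, adjusted p = 0.00902), against the direction of most of the list. Tppp3 was left uncalled in both by the fold minimum alone. It had 41.0 to 41.2 in control saline, 30.0 to 34.4 with control-labelled cocaine, 27.6 to 32.2 in cKO saline, and 45.4 and 41.1 with cKO-labelled cocaine, an order of groups that is also that of Maged1. The ependymal sums ran in a like order, 20.1 to 25.01, 4.24 to 26.6, 4.12 to 15.8 and 21.1 to 31.5, with overlap. Whether Tppp3 goes with either was not tested.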

How the data were processed

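RNA of microdissected thalamus was depleted of ribosomal RNA and sequenced as stranded read pairs. By the methods and the submitters' processing notes, the authors aligned reads to GRCm38.p4/mm10 with STAR 2.5.3a, quantified transcripts with salmon and summarised genes with tximport. TPM per gene symbol were deposited for each library. Tables of 2 libraries, recorded as unit other, hold deposited TPM with a decimal comma, read here as a point. TPM keep no depth, so their counting error is unknown. Over the listed genes they sum to 312659 to 377401, and counts were not used here.

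TPM were divided by unweighted TMM factors (trims of 30% of log ratios and 5% of means), and 0.5 was added before log2. Genes at 1 TPM or more in 3 or more libraries were fitted with limma 3.58.1 (R 4.3.3), 4 group means and an intensity trend, and p-values were Benjamini-Hochberg adjusted over 13471 genes. The pseudocount understates changes of low genes. The fit was tested on simulated data. Python 3.11.15, numpy 2.4.6, pandas 2.3.3 and scipy 1.17.1 did the rest. Coordinates and overlaps are from GENCODE M21 (GRCm38), and 17 members overlap another annotated gene.

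Groups follow the titles. The study's methods call the samples independent, but no animal numbers are given, so p-values measure the spread between these libraries. Members and lists were chosen with earlier results of these data known. Values in every library are given for called members, the 5 precursor genes, Mbp, Mobp, Cnp, Sox10, Olig1, Olig2 and Myrf, and others as examples of the largest changes; Gjc3, Klk6 and Tppp3 were added after their values were seen or as a called gene of the further lists. Some genes of these lists are not reported here. Alternatives were 3 other scalings (including none), pseudocounts of 0.1 and 1, no filter or a mean of 5 TPM, compared groups alone, no trend, a replicate block, genotype tags, 10 agreeing libraries, no fold minimum, and each library left out. Samples that share a replicate number did not deviate together (mean correlation -0.0139 over 18 pairs).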

Additional observations from a re-analysis of the deposited data

Results flagged for a closer look

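In 8 of 108 groups of 4 libraries, 1 library lay far from the others by Dixon's criterion, where chance gives about 1 in 20. Control saline replicate 1 was high for Bcas1 (39.24, the others 36.03 to 36.43), Mog (32.73, the others 23.59 to 23.96), Fa2h (12.89, the others 10.25 to 10.52) and Olig1 (63.52, the others 55.9 to 56.78), and low for Anln (4.2, the others 4.92 to 4.96), all in scaled TPM. In control saline, Olig2 was low in replicate 4 (9.41, the others 10.14 to 10.2) and Zfp536 high in replicate 2 (6.47, the others 5.76 to 5.82). Anln was high in cKO saline replicate 1 (7.94, the others 6.21 to 6.35). Between the labels the change of Tppp3 with cocaine differed by 0.875 on the log2 scale in limma (adjusted p = 0.00132), -0.38 with the control label and 0.49 with the cKO label.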

How the results depend on the processing

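Zfp488 kept its fall with cocaine past the thresholds in all alternatives run. For the control label the 7 members called became 1 with TPM as deposited, 4 with quantile scaling, 1 with the genotype tags and 1 with the 10 agreeing libraries, and 4 to 10 when 1 library was left out. For the cKO label the 3 became 14 as deposited, 1 with the tags and 1 with the agreeing libraries, and 1 to 4 with 1 library left out. The tags mix high and low Maged1 within each saline group, so the counts with them do not test the groups by title. Averaged over both labels the 1 became 7 as deposited, 3 with the agreeing libraries and 9 with no fold minimum, and 1 to 2 with 1 left out, and for the interaction the range was 0 to 4. Both genotype contrasts stayed at 0 in all 27 alternatives. Averaged over both labels, Cspg4 and Sox10 turned to -0.143 and -0.001 with TPM as deposited, which moves the median of all genes to -0.335. Over all genes the higher and lower calls then went from 207 and 210 to 53 and 2372 for the control label, from 247 and 167 to 65 and 3082 for the cKO label, and from 141 and 138 to 56 and 2290 for the average. Replicate numbers did not pair the libraries, and with the replicate block the counts were 7, 3, 0, 0, 0 and 1 for the 6 contrasts, as without it. The cause of these shifts was not tested. Some of these fits also hold fewer libraries. TPM set no depth limit here.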
